A study of Homo sapiens and Mus musculus with 12 samples.

Results

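Expression of CC chemokine genes and of selected CXC and CX3C chemokine genes was examined in 2 breast cancer cell lines exposed to ponatinib. The 10 symbols were chosen by gene name, with earlier results of these data known, and comprise *CCL2*, *CCL5*, *CCL7*, *CCL20*, *CCL28*, *CXCL10*, *CXCL12*, *CXCL16* and *CX3CL1* in human cells and the same 9 symbols in mouse cells, to which *Ccl9*, a mouse gene, was added. This gave 19 genes (9 human and 10 mouse) among the 111406 gene identifiers of the series (63677 human and 47729 mouse). MDA-MB-231 is a human TNBC line and 4T1 is a mouse mammary carcinoma line, both of wild-type genotype and both labelled as epithelial cells. Each line was cultured for 24 h with 1 µM ponatinib, which inhibits several tyrosine kinases, or with the solvent DMSO, and RNA was sequenced from 3 libraries per group, 12 in all. The labels do not say whether libraries of a group came from separate cultures, so the p-values below measure the spread between these libraries, which may be technical.

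Chemokines are small secreted proteins that guide leukocytes through G protein-coupled receptors, and tumor cells use them to draw monocytes, lymphocytes or dendritic cells into a tumor. CCL2 and CCL7 act on CCR2, CCL20 on CCR6 and CCL28 on CCR10, whereas CXCL10 shares CXCR3 with CXCL9 and CXCL11, and CXCL12 acts on CXCR4 and ACKR3. CXCL16 and CX3CL1 are unusual in being made as membrane-bound proteins that metalloproteases such as ADAM10 and ADAM17 can release from the cell surface. Many chemokine genes are switched on through NF-κB, interferon-activated STAT and IRF proteins, or AP-1, the dimers of FOS and JUN proteins.

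MDA-MB-231 libraries held 15012884 to 17301760 counts and 4T1 libraries held 17800675 to 18951493, so that 3 counts stood for a CPM (counts scaled to 1000000) of 0.164 to 0.199 in the former and 0.153 to 0.170 in the latter. Over all genes tested, the median log2 fold change was 0.02 for MDA-MB-231 and 0 for 4T1. Scaling to total counts rather than with TMM moved it to 0.11 and 0.12, and changed the split of all calls from 3975 higher and 3918 lower to 4641 and 3097 in MDA-MB-231, and from 3925 and 3909 to 4854 and 2935 in 4T1, while no chemokine gene changed direction or call within a line. Summed over 5 epithelial markers, levels lay at 1620 to 1990 CPM with DMSO and 2240 to 2800 CPM with ponatinib in MDA-MB-231, where *CDH1* had at most 1 count per library, and at 7880 to 9080 and 8020 to 8830 CPM in 4T1. The 7 leukocyte markers summed to 2.64 to 3.32 and 3.02 to 5.22 CPM in MDA-MB-231, with *PTPRC* at 0 in all libraries. In 4T1 they summed to 224 to 251 CPM with DMSO and 138 to 157 CPM with ponatinib, nearly all of it *Cd14*, with *Itgam* and *Cd3e* among the markers at 0. The 6 fibroblast and endothelial markers summed to 25.8 to 31.7 CPM with DMSO and 72.7 to 77 CPM with ponatinib in MDA-MB-231, with *PECAM1* at 0 and *COL1A1* as the main gene, and to 6.41 to 7.38 and 9.82 to 10.5 CPM in 4T1, with *Dcn* and *Lum* at 0. The part of these markers in the results was not tested, and in bulk samples fewer cells of a type and less RNA per cell cannot be told apart.

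The sequences before the start of *CXCL10* in both species, and of mouse *Ccl2* and *Ccl5*, are shown because the results turn on these genes: *CXCL10* moved in opposite directions in the lines, *Ccl2* was the most abundant of the mouse genes, and *Ccl5* fell with *Cxcl10*. Each line gives the 250 bases before the start, read 5′ to 3′ on the strand of the gene, with motif matches in capitals. The human window is chr4:76023498-76023747 on the minus strand of hg38 (RefSeq, GRCh38.p14), and the mouse windows on GRCm39 are chr5:92496749-92496998 on the minus strand, chr11:81926147-81926396 on the plus strand and chr11:83421346-83421595 on the minus strand, in the order printed, with starts from GENCODE.
Human *CXCL10*: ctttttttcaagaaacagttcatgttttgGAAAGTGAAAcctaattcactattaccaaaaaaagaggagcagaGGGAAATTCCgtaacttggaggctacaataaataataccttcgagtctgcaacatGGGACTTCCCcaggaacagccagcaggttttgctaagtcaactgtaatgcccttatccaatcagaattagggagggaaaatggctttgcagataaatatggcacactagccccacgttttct
Mouse *Cxcl10*: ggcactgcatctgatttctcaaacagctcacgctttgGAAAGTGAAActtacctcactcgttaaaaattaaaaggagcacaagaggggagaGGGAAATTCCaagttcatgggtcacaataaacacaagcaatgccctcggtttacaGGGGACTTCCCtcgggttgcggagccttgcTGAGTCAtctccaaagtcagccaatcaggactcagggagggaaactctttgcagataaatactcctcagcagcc
Mouse *Ccl2*: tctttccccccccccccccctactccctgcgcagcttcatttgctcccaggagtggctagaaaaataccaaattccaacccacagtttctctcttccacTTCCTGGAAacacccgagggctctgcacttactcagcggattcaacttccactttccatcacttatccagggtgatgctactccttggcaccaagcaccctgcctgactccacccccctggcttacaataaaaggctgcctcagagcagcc
Mouse *Ccl5*: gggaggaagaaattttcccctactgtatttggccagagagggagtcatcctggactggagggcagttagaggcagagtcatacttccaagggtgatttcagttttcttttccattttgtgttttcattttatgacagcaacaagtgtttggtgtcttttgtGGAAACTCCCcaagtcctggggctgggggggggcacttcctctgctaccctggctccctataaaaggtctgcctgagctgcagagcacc

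The motifs searched, on both strands, were the κB motif of NF-κB, the STAT motif GAS (TTCNNNGAA), the core of the interferon-stimulated response element (ISRE, GAAANNGAAA) and the AP-1 motif TGANTCA. The human *CXCL10* window held κB matches 177 to 168 and 122 to 113 bases before the start and an ISRE core match 221 to 212 bases before it. The mouse *Cxcl10* window held the same ISRE core letters 213 to 204 bases before the start, a κB match at 159 to 150 and a pair of overlapping κB matches at 104 to 94, and also an AP-1 match at 74 to 68 that has no counterpart among the matches of the human window. Mouse *Ccl2* held a GAS match 151 to 143 bases before the start and mouse *Ccl5* a κB match at 89 to 80. The *CCL20* windows of both species each held 1 κB match, 79 to 70 bases before the start in human and 80 to 71 in mouse, with the same letters. Mouse *Ccl9* held a κB match at 30 to 21 and an AP-1 match at 48 to 42, mouse *Ccl7* an AP-1 match at 63 to 57, and human *CCL7* an AP-1 match at 51 to 45 and a GAS match at 250 to 242. None of the motifs was found in the windows of *CCL28* and *CXCL12* in either species or of mouse *Cx3cl1* and *Cxcl16*, and human *CCL2*, *CCL5*, *CXCL16* and *CX3CL1* were not searched. Over windows of this length, a κB match was found in 9.96% of 35116 human and 7.62% of 21770 mouse starts, an ISRE core match in 3.02% and 3.32%, a GAS match in 6.57% and 7.70%, and an AP-1 match in 6.57% and 6.17%. A match is a run of letters and does not show that a factor binds there.

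In 4T1 cells, 9 of the 10 genes had enough counts to be tested, and 7 rose and 2 fell with ponatinib (edgeR's quasi-likelihood test, Benjamini-Hochberg adjusted p-value under 0.05). Of all 13286 genes tested in 4T1, 29.5% were higher and 29.4% lower by the same rule, 59.0% in either direction. DMSO and ponatinib libraries were fully separated for 8 of the 9 genes, against 63.4% of all genes. Of the 7 genes that rose, *Ccl28* passed the filter on low counts only through its ponatinib libraries, so that a rise was needed for it to be tested at all. *Ccl2*, *Ccl7*, *Ccl9*, *Ccl20*, *Ccl28* and the membrane-bound *Cxcl16* and *Cx3cl1* were higher, and *Ccl5* and *Cxcl10* were lower. In log2 fold change, the 9 genes ran from -1.78 to 2.50 with a median of 0.87.

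**Figure D1:**
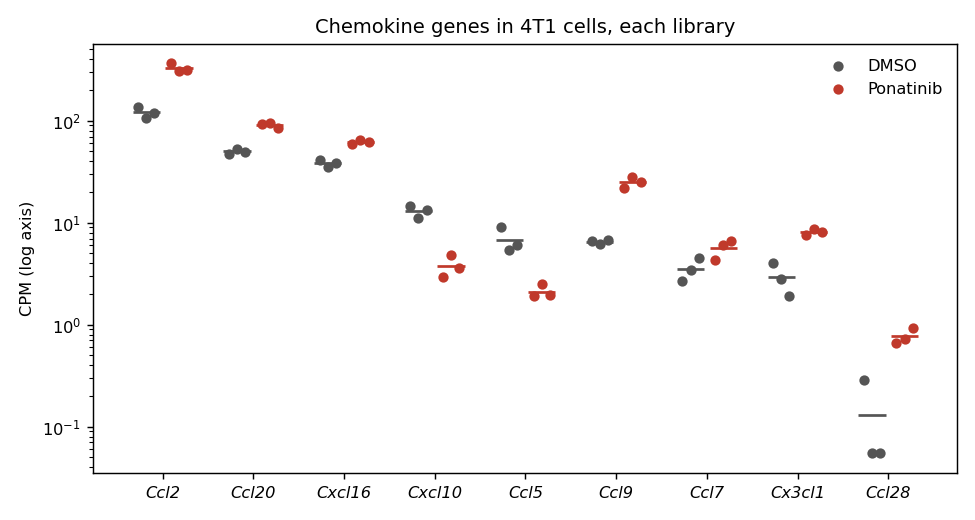
CPM of the 9 tested chemokine genes in each 4T1 library (log axis), with DMSO in grey and ponatinib in red, one point per library and a line at the mean of 3. *Ccl5* and *Cxcl10* lie lower with ponatinib and the other genes higher, and the groups touch in range for *Ccl7* alone, where the lowest ponatinib library (4.35 CPM) lies below the highest DMSO library (4.48 CPM).

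*Ccl2* (ENSMUSG00000035385, chr11:81926397-81928279 of GRCm39, plus strand), the main attractant of CCR2-bearing monocytes, was measured at 137, 107 and 119 CPM in the DMSO libraries and at 364, 309 and 314 CPM in the ponatinib libraries. All ponatinib libraries lay above all DMSO libraries. The mean went from 121 ± 15.1 to 329 ± 30.5 CPM (SD, n = 3 each), with log2 fold change 1.44 (SE 0.10, edgeR adjusted p = 1.63e-08). *Ccl7* (ENSMUSG00000035373, chr11:81936532-81938351, plus strand), another CCR2 ligand whose gene starts 8252 bases beyond the end of *Ccl2*, was measured at 2.67, 3.45 and 4.48 CPM with DMSO and 4.35, 6.04 and 6.67 CPM with ponatinib. The groups overlapped, and the rise from 3.53 ± 0.912 to 5.69 ± 1.20 CPM (SD, n = 3 each) was the smallest of the called changes (log2 fold change 0.68, SE 0.22, edgeR adjusted p = 0.0148). It passed the threshold neither without DMSO replicate 1 (0.51, edgeR adjusted p = 0.0502) nor without ponatinib replicate 3 (0.56, edgeR adjusted p = 0.0772). Of the genes next to this pair, *Ccl11* lies 10266 bases beyond *Ccl7* and had no counts in any 4T1 library.

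*Ccl9* (ENSMUSG00000019122, chr11:83463745-83473161, minus strand), a CCR1 ligand of rodents that attracts myeloid cells, was measured at 6.63, 6.22 and 6.73 CPM with DMSO and 21.8, 27.8 and 25.1 CPM with ponatinib. The DMSO libraries were close together and the ponatinib libraries lay well above them. From 6.53 ± 0.267 to 24.9 ± 3.04 CPM (SD, n = 3 each), it rose by a log2 fold change of 1.93 (SE 0.13, edgeR adjusted p = 1.54e-08). *Ccl5* (ENSMUSG00000035042, chr11:83416602-83425942, minus strand), also called RANTES, an attractant of T cells and monocytes, lies 37802 bases from *Ccl9* on the same strand and moved the other way. It was measured at 9.02, 5.45 and 6.02 CPM with DMSO and 1.89, 2.48 and 1.95 CPM with ponatinib. The mean fell from 6.83 ± 1.92 to 2.11 ± 0.324 CPM (SD, n = 3 each) without overlap of the groups (log2 fold change -1.69, SE 0.23, edgeR adjusted p = 1.73e-05). DMSO replicate 1 was the highest library for *Ccl5*, and over all alternatives, which included leaving out each library, the log2 fold change stayed between -1.83 and -1.45. *Ccl6*, a relative of *Ccl9* that lies 5546 bases from it, had at most 6 counts in a library and was not tested.

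*Ccl20* (ENSMUSG00000026166, chr1:83094487-83096888, plus strand), which attracts CCR6-bearing T cells and dendritic cells, was measured at 47.4, 53.2 and 49.2 CPM with DMSO and 92.8, 96.0 and 85.7 CPM with ponatinib. The groups were far apart for their spread, at 49.9 ± 2.96 and 91.5 ± 5.25 CPM (SD, n = 3 each), with a log2 fold change of 0.87 (SE 0.08, edgeR adjusted p = 4.3e-07). *Ccl28* (ENSMUSG00000074715, chr13:120085355-120115895, plus strand), which attracts CCR10-bearing lymphocytes to mucosal surfaces, was rare, with 5, 1 and 1 counts with DMSO and 13, 14 and 17 counts with ponatinib. DMSO replicate 1 held 5 of the 7 DMSO counts. The log2 fold change was 2.50 (SE 0.57, edgeR adjusted p = 0.0017), and the ratio of the pooled counts, scaled to library size, was 5.92 with a 95% interval of 2.64 to 15.6 (Clopper-Pearson, counting error only). Without DMSO replicate 1 the log2 fold change was 3.64 (SE 0.77, edgeR adjusted p = 0.000431).

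Both membrane-bound chemokines rose. *Cx3cl1* (ENSMUSG00000031778, chr8:95498637-95509055, plus strand), or fractalkine, the ligand of CX3CR1, was measured at 4.03, 2.78 and 1.91 CPM with DMSO and 7.57, 8.63 and 8.08 CPM with ponatinib. The means were 2.91 ± 1.06 and 8.09 ± 0.531 CPM (SD, n = 3 each), with no overlap and a log2 fold change of 1.48 (SE 0.21, edgeR adjusted p = 3.6e-05). *Cxcl16* (ENSMUSG00000018920, chr11:70344517-70352620, minus strand), the ligand of CXCR6, was measured at 41.2, 35.0 and 38.7 CPM with DMSO and 59.1, 64.0 and 61.7 CPM with ponatinib. Its mean went from 38.3 ± 3.15 to 61.6 ± 2.43 CPM (SD, n = 3 each), with log2 fold change 0.69 (SE 0.09, edgeR adjusted p = 9.18e-06). The *Cxcl16* value is uncertain, because 43.2% of the exon bases of the gene are shared with *Med11* and 41.6% with *Zmynd15* on the opposite strand, and whether strand was used in counting is not given in the sources used here. *Zmynd15* itself rose (log2 fold change 0.52, edgeR adjusted p = 0.000177), and *Med11* was not called (0.07, edgeR adjusted p = 0.57).

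*Cxcl10* (ENSMUSG00000034855, chr5:92494497-92496748, minus strand), the interferon-inducible attractant of CXCR3-bearing T cells and NK cells, was measured at 14.7, 11.2 and 13.2 CPM with DMSO and 2.91, 4.86 and 3.58 CPM with ponatinib. Every ponatinib library lay below every DMSO library. The mean fell from 13.0 ± 1.73 to 3.78 ± 0.987 CPM (SD, n = 3 each), with log2 fold change -1.78 (SE 0.18, edgeR adjusted p = 1.15e-06). *Cxcl12*, which retains CXCR4-bearing cells in bone marrow and stroma, had 1 count in 1 DMSO library and 0 in the other libraries, and was not tested.

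Per kilobase of exon, the DMSO level of the 4T1 genes was highest for *Ccl2*, at 106 ± 13.3 CPM per kb (SD, n = 3), then *Ccl20* (35.1 ± 2.09), *Cxcl16* (7.48 ± 0.616), *Ccl5* (6.65 ± 1.87), *Cxcl10* (5.79 ± 0.770), *Ccl7* (4.38 ± 1.13), *Ccl9* (2.10 ± 0.0858), *Cx3cl1* (0.732 ± 0.267) and *Ccl28* (0.0264 ± 0.0266). Neighbours from *Cxcl16* to *Ccl7* in this order overlapped in range and the other neighbours did not. The level and place of *Cxcl16* carry the uncertainty from shared exon bases given above, with either treatment. With ponatinib *Ccl2* (289 ± 26.8 CPM per kb), *Ccl20* (64.4 ± 3.70) and *Cxcl16* (12 ± 0.475) kept the top of the order, *Ccl9* (8.0 ± 0.976) stood beside *Ccl7* (7.05 ± 1.49), and *Ccl5* (2.05 ± 0.315), *Cx3cl1* (2.04 ± 0.134) and *Cxcl10* (1.68 ± 0.438) overlapped with each other. The share of *Ccl2* in the summed level of the 10 genes per kb was 60.5% to 65.6% in the DMSO libraries and 72.4% to 77.2% in the ponatinib libraries, while *Ccl5* held 3.40% to 4.78% with DMSO and 0.444% to 0.644% with ponatinib, and *Cxcl10* held 3.20% to 3.55% and 0.312% to 0.575%. Summed without the length, the genes held 225 to 263 CPM with DMSO and 507 to 555 CPM with ponatinib.

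The same genes were far scarcer in MDA-MB-231, where they summed to 11.1 to 12.1 CPM with DMSO and 20.4 to 22.5 CPM with ponatinib. Of the 9 human genes, 4 passed the filter on low counts. Of these, *CCL28*, *CXCL16* and *CXCL10* rose, none fell and *CCL20* was not called, where 27.2% of the 14610 genes tested were higher, 26.8% lower and 54.0% changed in either direction by the same rule. The groups did not overlap for 3 of the 4 tested genes, against 60.4% of all genes, and overlapped for *CCL20*. Of the 4 genes, *CXCL10* passed the filter only through its ponatinib libraries, so that it could be tested only if higher, and *CCL20* only through its DMSO libraries.

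**Figure D2:**
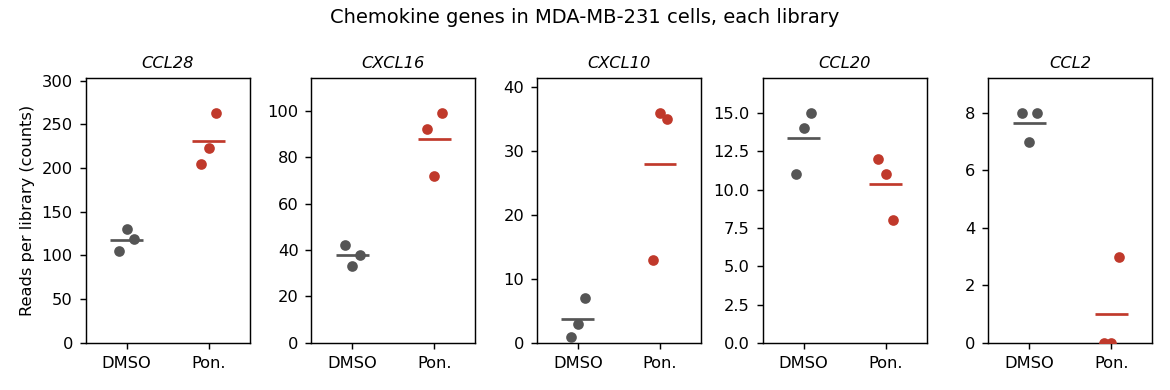
Counts of 5 human chemokine genes in each MDA-MB-231 library (linear axes from 0, one scale per panel), with DMSO in grey and ponatinib (Pon.) in red, one point per library and a line at the mean of 3. *CCL28*, *CXCL16* and *CXCL10* are higher in every ponatinib library, *CCL20* overlaps, and *CCL2* has 7 or 8 counts with DMSO and at most 3 with ponatinib.

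*CCL28* (ENSG00000151882, chr5:43376645-43412391 of hg38, minus strand) was the most abundant of the human genes whose level could be read. It was measured at 6.96, 8.42 and 7.49 CPM with DMSO and 12.9, 14.2 and 14.4 CPM with ponatinib (105, 130 and 119 counts against 205, 223 and 263). The groups were apart by several times their spread. From 7.62 ± 0.737 to 13.8 ± 0.798 CPM (SD, n = 3 each), it rose by a log2 fold change of 0.86 (SE 0.13, edgeR adjusted p = 0.000167). *CXCL16* (ENSG00000161921, chr17:4733533-4739928, minus strand) was measured at 2.79, 2.14 and 2.39 CPM with DMSO and 5.80, 4.59 and 5.42 CPM with ponatinib. Again all ponatinib libraries were higher, and the mean went from 2.44 ± 0.327 to 5.27 ± 0.622 CPM (SD, n = 3 each), with log2 fold change 1.11 (SE 0.20, edgeR adjusted p = 0.000568). In the human annotation, *CXCL16* shares only 3.4% of its exon bases with *ZMYND15*, which had at most 5 counts, and 2.7% with *MED11* (log2 fold change -0.03, edgeR adjusted p = 0.915).

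*CXCL10* (ENSG00000169245, chr4:76021118-76023497, minus strand) had 1, 3 and 7 counts with DMSO and 13, 36 and 35 counts with ponatinib, or 0.0663, 0.194 and 0.440 CPM against 0.820, 2.29 and 1.92 CPM. The lowest ponatinib library was still above the highest DMSO library. The log2 fold change was 2.79 (SE 0.57, edgeR adjusted p = 0.00141), the largest of the 4 human chemokine genes tested, and the ratio of pooled counts scaled to library size was 7.09 (95% interval 3.77 to 14.8, Clopper-Pearson, counting error only). DMSO replicate 3 held 7 of the 11 DMSO counts, and without it the log2 fold change was 3.60 (SE 0.70, edgeR adjusted p = 0.00183). *CCL20* (ENSG00000115009, chr2:227805739-227817564, plus strand) had 11, 14 and 15 counts with DMSO and 12, 11 and 8 with ponatinib. The groups overlapped, and the log2 fold change of -0.46 had a 95% interval of -1.27 to 0.36 (edgeR adjusted p = 0.324), which holds both a fall and a rise.

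*CCL2* (ENSG00000108691, chr17:34255274-34257208, plus strand) was below the filter, with 8, 7 and 8 counts with DMSO and 0, 0 and 3 with ponatinib. Every ponatinib library lay below every DMSO library, for which an exact two-sided permutation test of 3 against 3 libraries cannot give a p below 0.1. The pooled counts of 23 and 3 gave a DMSO level 8.23 times the ponatinib level after scaling to library size, with a 95% interval of 2.49 to 42.8 (Clopper-Pearson, counting error only). With the filter removed, edgeR gave *CCL2* a log2 fold change of -2.94 (SE 0.96, adjusted p = 0.00922). *CX3CL1* had no counts with DMSO and 1 count in each ponatinib library, *CXCL12* had 2 counts in 1 ponatinib library, and *CCL7* had 0 in all 6 libraries, which allows up to 3 counts. *CCL5* was listed at 0 under its current identifier, but so was its neighbour *TAF15*, a gene of an RNA-binding protein that cells generally use, so no level of *CCL5* can be read in these human files. In 4T1, *Taf15* had 6505 to 8182 counts per library.

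Per kilobase of exon with DMSO, the human genes ran from *CCL28* (1.68 ± 0.163 CPM per kb, SD, n = 3) through *CXCL16* (0.873 ± 0.117) and *CCL20* (0.539 ± 0.0718) to *CCL2* (0.256 ± 0.0203) and *CXCL10* (0.199 ± 0.162), and of these neighbours only the last pair overlapped. With ponatinib *CXCL10* (1.43 ± 0.651 CPM per kb) reached the range of *CXCL16* (1.89 ± 0.223), below *CCL28* (3.06 ± 0.176) and above *CCL20* (0.396 ± 0.107). *CCL2* and *Ccl2* held different places in the lines. With DMSO, *CCL2* made up 6.52% to 8.25% of the summed level in MDA-MB-231 and *Ccl2* 60.5% to 65.6% in 4T1. With ponatinib, the shares were 1.19% or less in MDA-MB-231 and 72.4% or more in 4T1. The human share with ponatinib rests on 3 counts in replicate 3. The human sum enters *CCL5* as 0.

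The question whether ponatinib acted alike on a gene in both lines was put to the difference of the log2 fold changes, fitted over 12488 genes that share a symbol in the species, of which 41.9% differed at an adjusted p-value under 0.05. Of the chemokine symbols, 4 were tested in both lines. Human *CXCL10* and mouse *Ccl28* passed the filter of their line only through ponatinib libraries. A rise there was thus needed for them to be among these symbols. Human *CCL20* passed only through its DMSO libraries. *CXCL10* differed most, by -4.65 on the log2 scale as 4T1 minus MDA-MB-231 (SE 0.55, edgeR adjusted p = 1.54e-06), since it rose in the human line (2.79) and fell in the mouse line (-1.78). Without MDA-MB-231 DMSO replicate 3 this difference was -5.47 (edgeR adjusted p = 2.74e-06). *CCL20* differed by 1.27 (SE 0.31, edgeR adjusted p = 0.00253), with -0.46 in MDA-MB-231, not called, and 0.87 in 4T1. *CCL28* rose in both lines, at 0.86 and 2.50, with a difference of 1.56 (SE 0.53, edgeR adjusted p = 0.0219) that did not pass without 4T1 DMSO replicate 2 (1.28, adjusted p = 0.0816) or replicate 3 (1.26, adjusted p = 0.0837). Without 4T1 DMSO replicate 1 it was 2.75 (edgeR adjusted p = 0.00238). *CXCL16* rose in both lines, at 1.11 and 0.69, with a difference of -0.50 (SE 0.19, edgeR adjusted p = 0.0418). This difference passed in only 5 of 18 alternatives, with adjusted p-values from 0.0252 to 0.132. Its mouse side carries the uncertainty from the shared exon bases of *Cxcl16*.

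**Figure D3:**
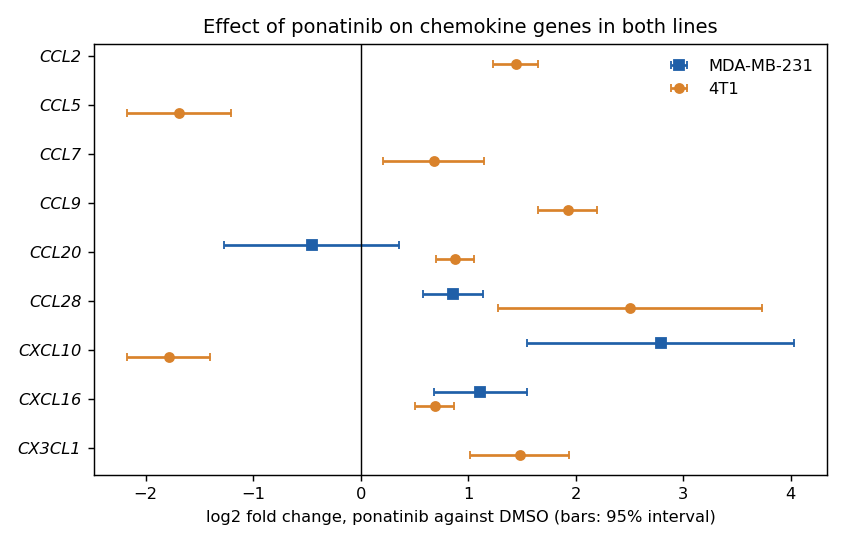
Log2 fold change of each tested chemokine gene with ponatinib against DMSO, with MDA-MB-231 as blue squares and 4T1 as orange circles, and bars for 95% intervals of the edgeR fit. *CXCL10* lies at 2.79 in MDA-MB-231 and -1.78 in 4T1, while *CCL28* and *CXCL16* lie above 0 in both lines.

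For *CCL2*, which was below the filter in MDA-MB-231, the joint fit gave a difference of 4.28 (SE 0.70, edgeR adjusted p = 6.43e-05), with the human side resting on the 23 and 3 counts above. All 3 ponatinib counts lay in replicate 3, and without that library the difference was 7.58 (SE 1.10, edgeR adjusted p = 2.15e-05), which with the other ponatinib libraries at 0 is no measure of size. Over all alternatives it ran from 3.78 to 7.58. *CX3CL1*, with 3 human counts, gave a difference of -1.82 (SE 1.48, edgeR adjusted p = 0.357). No difference is given for *CCL5* and *CCL7*, whose human libraries were all listed at 0, or for *CXCL12*, which had at most 2 counts in a library of either line.

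The genes whose pair of log2 fold changes lay nearest to that of each chemokine gene were sought among 7406 genes with at least 10 CPM in the higher group of each line. Around *CXCL10* the plane was sparse: *GDF15*, a stress-induced cytokine, was nearest at a distance of 0.279 (2.89 for the human and -1.52 for the mouse gene), followed by the transcription factor gene *SOX4* (2.14 and -1.08, distance 0.955) and the cyclin gene *CCNG2* (1.61 and -1.31, distance 1.273). *GADD45B*, a stress-response gene, lay nearest to *CCL28* (0.88 and 2.52, distance 0.028), before *PLEKHF1* (0.225) and *SLC25A23* (0.297). *CXCL16* had *AGBL5* (0.038), *CEBPD* (0.039) and *RBL2* (0.045) close by, and *CCL20* had *CENPX* (0.030), *SHQ1* (0.034) and *CPPED1* (0.045). Each place rests on 6 libraries per line and describes nearness of 2 values per gene. The SE was 0.57 for mouse *Ccl28*, 0.57 for human *CXCL10*, 0.37 for human *CCL20* and 0.20 for human *CXCL16*. Each exceeded the distance of the nearest gene, so which gene lies nearest is uncertain. The chemokine genes themselves did not have to reach 10 CPM.

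*CXCL11*, which encodes the other interferon-inducible ligand of CXCR3 found at more than trace counts, lies 10184 bases from *CXCL10* in human and 10654 bases in mouse. In MDA-MB-231 it had 2, 5 and 8 counts with DMSO and 16, 18 and 14 with ponatinib, and rose with *CXCL10* (log2 fold change 1.56, SE 0.47, edgeR adjusted p = 0.0137), though it passed the filter only through the ponatinib libraries. In 4T1 *Cxcl11* had 13, 23 and 20 counts with DMSO and 38, 35 and 39 with ponatinib and rose as well (0.91, SE 0.29, edgeR adjusted p = 0.0146), while its neighbour *Cxcl10* fell. Between the lines, the effect on *CXCL11* differed by -0.73 on the log2 scale (SE 0.54, edgeR adjusted p = 0.307), which did not pass. The ratio of *Cxcl10* to *Cxcl11* counts in 4T1 was 19.9, 8.78 and 12.1 with DMSO and 1.5, 2.69 and 1.69 with ponatinib. The third gene of the cluster, *CXCL9*, had at most 1 count in an MDA-MB-231 library and at most 3 in a 4T1 library.

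**Figure D4:**
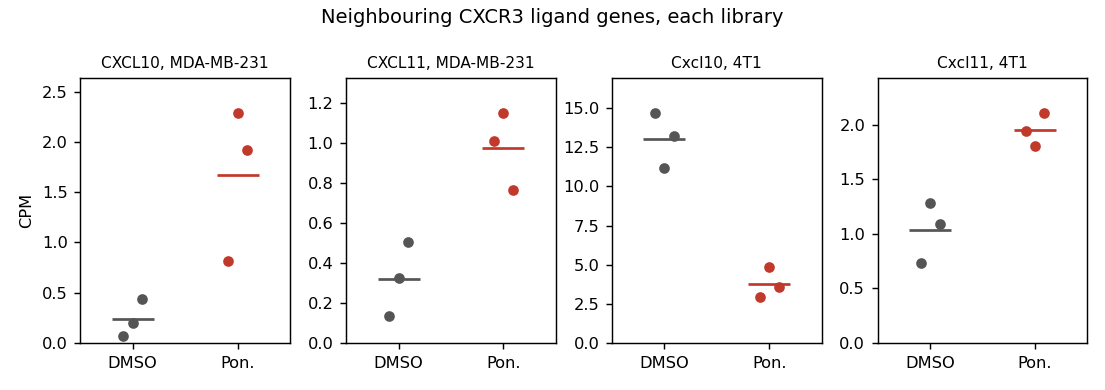
CPM of *CXCL10* and *CXCL11* in each library of both lines (linear axes from 0, one scale per panel), with DMSO in grey and ponatinib (Pon.) in red and a line at the mean of 3. Ponatinib libraries are higher for *CXCL10* and *CXCL11* in MDA-MB-231 and for *Cxcl11* in 4T1, and lower for *Cxcl10* in 4T1.

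Of the other CC, CXC and XC chemokine genes listed, few were expressed at a level that could be tested. For this list and those below, the calls stand beside 54.0% of all tested genes called in MDA-MB-231 and 59.0% in 4T1. In MDA-MB-231, 19 of 26 listed genes were matched in the files and 2 were tested, *CXCL11* and *CCL26*, both higher, with a median log2 fold change of 1.60. *CCL26*, the CCR3 ligand eotaxin-3, had 15, 11 and 11 counts with DMSO and 44, 38 and 43 with ponatinib (log2 fold change 1.65, SE 0.29, edgeR adjusted p = 0.00046). In 4T1, 2 of 21 were tested, *Cxcl11* and *Ccl25*, of which *Ccl25*, a gut and thymus chemokine, was not called (-0.08, edgeR adjusted p = 0.63).

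Receptor genes for these ligands mostly had few or no counts. Of 13 receptor genes, 3 were tested in MDA-MB-231, with 2 higher, 1 lower and a median log2 fold change of 0.76, and 2 in 4T1, with 1 lower, 1 not called and a median of -0.01. *ACKR3*, the atypical receptor that scavenges CXCL12 and CXCL11, had 1 count in each MDA-MB-231 DMSO library and 19, 26 and 14 counts with ponatinib (log2 fold change 4.05, SE 0.60, edgeR adjusted p = 0.000147), passing the filter through the ponatinib libraries alone. In 4T1 *Ackr3* was abundant and fell from 304 ± 33.9 to 174 ± 18.1 CPM (SD, n = 3 each), with log2 fold change -0.81 (SE 0.10, edgeR adjusted p = 5.38e-06), and the difference between the lines was -4.93 (SE 0.56, edgeR adjusted p = 8.54e-07). *CXCR4*, the signaling receptor of CXCL12, had 52, 40 and 50 counts with DMSO and 27, 18 and 28 with ponatinib in MDA-MB-231 (log2 fold change -1.06, SE 0.25, edgeR adjusted p = 0.00375) and none in 4T1. *CCR10*, the CCL28 receptor, rose in MDA-MB-231 (0.76, SE 0.23, edgeR adjusted p = 0.0137) and was not called in 4T1 (0.78, SE 0.35, edgeR adjusted p = 0.0668), and the difference between the lines was -0.05 (SE 0.44, edgeR adjusted p = 0.989). *CCR6* and *CCR2* had no counts in any of the 12 libraries.

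Among 9 genes for proteases that release or trim chemokines and for their regulators, 7 were tested in MDA-MB-231 (2 higher, 2 lower, median log2 fold change 0.11) and 5 in 4T1 (1 higher, 2 lower, median 0.07). *ADAM10* (-0.05 in the human and 0.07 in the mouse line) and *ADAM17* (0.51 and 0.19), the sheddases of CXCL16 and CX3CL1, were called in neither line. *TIMP3*, an inhibitor of ADAM17, rose in MDA-MB-231 from 30.4 ± 3.11 to 58.8 ± 5.82 CPM (SD, n = 3 each, log2 fold change 0.95) and fell in 4T1 from 4.99 ± 0.471 to 1.53 ± 0.134 CPM (SD, n = 3 each, -1.70). *Rhbdf2*, which encodes an ADAM17 partner, fell in 4T1 (-0.48), and the matrix protease gene *MMP14* fell in MDA-MB-231 (-0.54) and rose in 4T1 (0.36). *DPP4*, whose product cuts the amino end of CXCL10, rose in MDA-MB-231 from 15, 11 and 17 counts to 26, 30 and 43 counts (1.09, SE 0.30, edgeR adjusted p = 0.00945), and *MMP9* fell there (-0.41, SE 0.16, edgeR adjusted p = 0.0446).

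All 20 listed regulators of chemokine genes were tested in each line, with 7 higher, 5 lower and a median log2 fold change of 0.05 in MDA-MB-231 and 9 higher, 5 lower and a median of 0.11 in 4T1. The AP-1 subunit genes *FOSL1* (-2.72 in the human and -1.62 in the mouse line) and *JUN* (-1.53 and -3.16) fell in both lines, and *FOS* rose in MDA-MB-231 (2.38) but was not called in 4T1 (0.12). *STAT2*, a subunit of the interferon-activated factor ISGF3, rose in both lines (1.79 and 0.88). *Irf1*, an interferon-induced transcription factor gene, rose in 4T1 (0.75, SE 0.09, edgeR adjusted p = 4.1e-06). In 4T1, *Jun* and *Fosl1* thus fell as *Cxcl10* did, and *Stat2* and *Irf1* rose. In MDA-MB-231, *JUN* and *FOSL1* fell as well, while *CXCL10* rose. *STAT2* rose there too, and *IRF1* was not called (0.14). A link of any of these genes to *Cxcl10* was not tested.

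Of 11 genes for cytokines that induce chemokines and for their receptors, 9 were tested in MDA-MB-231 (2 higher, 4 lower, median log2 fold change -0.09) and 8 in 4T1 (5 higher, 3 lower, median 0.33). The interleukin-1 genes were lower where they could be tested: *IL1A* fell in the human line (-2.92) and in the mouse line (-2.64), where it passed the filter only through DMSO libraries, and *IL1B* fell in MDA-MB-231 (-5.29) and had at most 5 counts in a 4T1 library. *IFNGR1*, for a receptor subunit of interferon-γ, rose in both lines (0.67 in the human and 0.81 in the mouse line). *IFNGR2*, for another subunit, rose in 4T1 (0.85) and was not called in MDA-MB-231 (-0.09). *IFNAR1*, for type I interferon, fell in both lines (-0.26 in the human and -0.59 in the mouse line). *TLR3*, a sensor of double-stranded RNA, rose from 39, 41 and 48 counts to 91, 105 and 140 counts in MDA-MB-231 (1.28, SE 0.19, edgeR adjusted p = 0.000124). It rose in 4T1 as well (1.17, SE 0.24, edgeR adjusted p = 0.000837). *IFNB1* and *TNF* were below the filter in both lines and were not tested. *TNF* had at most 5 counts in a library. *IFNB1* had 0 counts in all MDA-MB-231 libraries. In 4T1 *Ifnb1* had 0 counts in each DMSO library and 1, 5 and 6 counts with ponatinib.

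**Figure D5:**
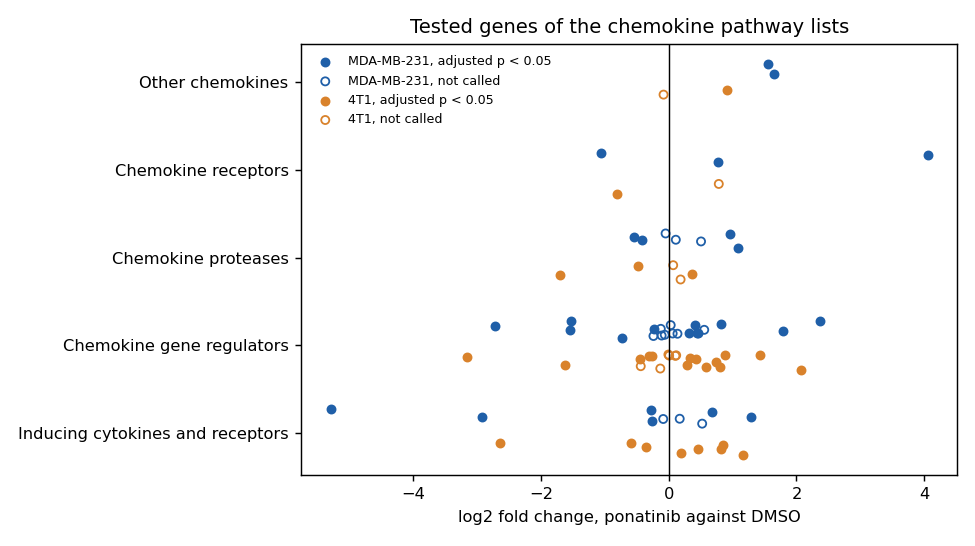
Log2 fold change with ponatinib against DMSO of every tested gene of the 5 lists (rows), with MDA-MB-231 in blue and 4T1 in orange, filled points for an edgeR adjusted p-value under 0.05 and open points for genes not called. The vertical spread within a row carries no value. Both directions occur in every list that has more than 3 tested genes in a line, and the leftmost points are *IL1B* (-5.29) and *Jun* in 4T1 (-3.16).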

How the data were processed

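RNA-seq counts of 12 libraries (4 groups of 3) were used. Clean reads had been aligned by the authors with HISAT2 (hg38 for human, GRCm39 for mouse), and HTSeq gave the counts per gene. Versions, annotation and strand setting are not given in the sources used here. The deposited values are raw counts, with no normalization. Of the identifiers, 81.9% (human) and 91.1% (mouse) were matched to GENCODE, holding 99.3% and 99.8% of the counts.

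Each line was fitted apart in R 4.3.3 with edgeR 4.0.16 (filterByExpr with a minimum count of 10, TMM, quasi-likelihood test, Benjamini-Hochberg over all genes tested, threshold 0.05), and the difference between the lines as the interaction of line and treatment. CPM used TMM-scaled totals. On simulated data with 2-fold changes, 96.4% of 196 changed genes were recovered in the MDA-MB-231 fit (14560 genes), 93.7% of 189 in 4T1 (13259 genes) and 94.5% of 200 in the difference (12430 genes). False calls numbered 11, 11 and 12. The simulation changed 200 genes and gave every gene the same setting of spread. In the data 54.0% (MDA-MB-231) and 59.0% (4T1) of genes were called, so normalization under so many changes was not tried.

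The chemokine genes and the 5 lists were chosen with earlier results of these data known. The text names all chemokine genes, up to 4 called genes per list and line with the smallest adjusted p-values, the 3 genes of nearest fold changes and neighbours in the annotation. Results of some genes that this rule includes are not reported here. Other genes were named after their values were seen: *ADAM10*, *ADAM17*, *CCR2*, *CCR6*, *IFNB1*, *TNF*, *Ccl25*, and the second-line values of genes named in 1 line. Pairing by replicate number was checked through the correlation of deviations from group means, which gave 0.435, 0.145 and 0.180 for MDA-MB-231 and 0.251, 0.156 and 0.135 for 4T1. They were computed for like numbers only, with no unlike pairs beside them, so they cannot tell whether the numbers pair the libraries. The values given come from fits without the replicate block, which was run as an alternative. No library was a copy of another. Alternatives were DESeq2 1.42.0, its size factors, total counts, other filters, the replicate block and leaving out each library.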

Additional observations from a re-analysis of the deposited data

Results flagged for a closer look

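The effect of ponatinib differed between the lines, by edgeR's interaction test, for 4 chemokine genes that were tested in both. As log2 fold change in 4T1 minus that in MDA-MB-231, the differences were -4.65 for *CXCL10*, 1.27 for *CCL20*, 1.56 for *CCL28* and -0.50 for *CXCL16*. By the same test 41.9% of all genes compared differed. Human *CXCL10* and mouse *Ccl28* could be tested in their line only if higher with ponatinib. Human *CCL20* passed the filter only through its DMSO libraries. The lines differ in species, annotation and depth, which cannot be told apart from a difference between the cells.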

How the results depend on the processing

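Of 256 values of single genes under the alternatives, 239 kept their direction and side of the threshold, 17 kept their direction but no longer passed, and 0 reversed. The 17 belong to the difference of *CXCL16* (13), the difference of *CCL28* (2) and *Ccl7* in 4T1 (2). Without a filter, 1 human gene (*CCL2*) was lower in place of 0. The effect differed between the lines for 5 genes, but for 1 where every library had to hold at least 10 counts, a filter under which *CCL2*, *CCL20*, *CCL28* and *CXCL10* drop out. Under the same filter, *CCL20* and *CXCL10* in MDA-MB-231 and *Ccl28* in 4T1 could not be tested. With each library left out in turn, 3 to 3 human genes were higher and 0 to 0 lower, 6 to 7 mouse genes were higher and 2 to 2 lower, and 3 to 5 genes differed between the lines, with the 3 without 4T1 DMSO replicate 3. The difference of *CXCL16* also missed the threshold with DESeq2 (adjusted p = 0.0584), its size factors (0.0544), total counts (0.0943) and no filter (0.0567). With the replicate block, for which the pairing check cannot decide, 3 human genes were higher and 0 lower, and 7 mouse genes were higher and 2 lower. With it 5 genes differed between the lines, so that the block changed no call. The cause of the other shifts was not tested. In the main fits 5 of 9 human genes and 1 of 10 mouse genes could not be tested. Of these, *CCL5* had no readable level under its current identifier, and the others had too few counts at these depths. Human *CXCL10* and *CCL20* rest on 1 to 36 counts per library.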
